A study of Homo sapiens with 18 samples.

Results

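The subject is the interaction of 4 h feeding with Torin1 in HEK-293E cells: for each gene, the log2 change with 4 h of feeding in the presence of Torin1 minus the log2 change with 4 h of feeding in its absence. It was computed for every expressed gene, which were 16414 of the 60623 genes in the table, from 12 of the 18 RNA sequencing libraries of the study. HEK-293E is a line derived from human embryonic kidney. The 4 groups, of 3 libraries each, were cells fed for 4 h with Torin1, starved cells with Torin1, cells fed for 4 h without Torin1 and starved cells without Torin1. All cells had first been kept overnight in medium with very little serum, and feeding meant a change to the usual growth medium. That medium brings serum as well as nutrients, so a response to growth factors and one to nutrients cannot be told apart. The sources used here give neither the dose of Torin1 nor the length of the treatment, and do not state that replicates came from different cultures. The p-values therefore measure only the spread between these libraries.

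Torin1 blocks the active site of mTOR, a kinase that sits in a pair of complexes and couples the supply of amino acids, energy and growth factors to growth. Active mTOR complex 1 promotes translation, the making of ribosomes, nucleotides and lipids, and restrains autophagy and lysosome genes. Feeding starved cells activates the complex, so the interaction asks which transcripts respond to feeding differently when mTOR is inhibited. A positive interaction means that the feeding change was more positive, or less negative, with Torin1 than without it, and a negative interaction the reverse. A gene was called at an adjusted p under 0.05 over all genes tested. Levels are given as CPM, that is, counts divided by the effective size of the library, which are not divided by gene length.

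The 12 libraries held 10510689 to 13676378 counts. Taking 3 counts as the limit for a count of 0, a gene without a count may have been present at up to 0.219 to 0.285 CPM depending on the library, counting error only. This limit was taken over total counts, without the scaling that the other CPM values carry, so it is approximate beside them. The summed level of 12 genes that mark HEK-293 cells (neurofilaments, VIM, PAX2 and others) was 1702 to 1819 CPM in 4 h fed and 1451 to 1712 CPM in starved libraries with Torin1, and 1167 to 1184 CPM in 4 h fed and 1100.5 to 1302 CPM in starved libraries without it, with none of the 12 at 0. The sum of 10 fibroblast markers was 17.6 to 39.1, 17.6 to 19.1, 8.93 to 15.7 and 11.3 to 45.7 CPM in the same order of groups. A pair of libraries stood apart in collagen genes. COL3A1 had 0.641, 5.49 and 0.437 CPM in 4 h fed cells with Torin1 and 10.6, 0.585 and 0.459 CPM in starved cells, and COL1A2 had 0.285, 5.56 and 0.0728 CPM and 6.90, 0.334 and 0.276 CPM, so that replicate 2 of the fed Torin1 group and replicate 1 of the starved group were high. COL1A2 was at 0 in all 3 libraries of 4 h fed cells, and its fitted change is not used. Without that pair of libraries, an alternative chosen after the data were seen, 3353 genes were called for the interaction, 3207 of them among the 4233 called with all libraries.

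Feeding changed far fewer transcripts when Torin1 was present, and the interaction was correspondingly broad. With Torin1, 4 h of feeding changed 296 genes (1.8% of those tested), of which 136 rose and 160 fell. Without Torin1 it changed 6940 genes (42.3%), of which 3801 rose and 3139 fell. The interaction itself was called for 4233 genes (25.8%), with 1599 positive (9.74%) and 2634 negative (16%). Among them 1508 had an interaction of at least 1 on the log2 scale, 401 positive and 1107 negative. The median interaction over all genes tested was −0.02.

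For most called genes the feeding change with Torin1 was close to 0. Of the 1599 genes with a positive interaction, 1192 changed by no more than 0.25 on the log2 scale with feeding in the presence of Torin1, and their median feeding change was 0.07 with Torin1 and −0.63 without it. Of the 2634 with a negative interaction, 2076 stayed within 0.25 with Torin1, and the median feeding changes were 0.00 with Torin1 and 0.86 without it. A change in the same direction that was larger with Torin1 than without it was estimated for 17 of the positive and 7 of the negative genes. These medians describe genes chosen on the same values and carry no test.

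**Figure D1:**
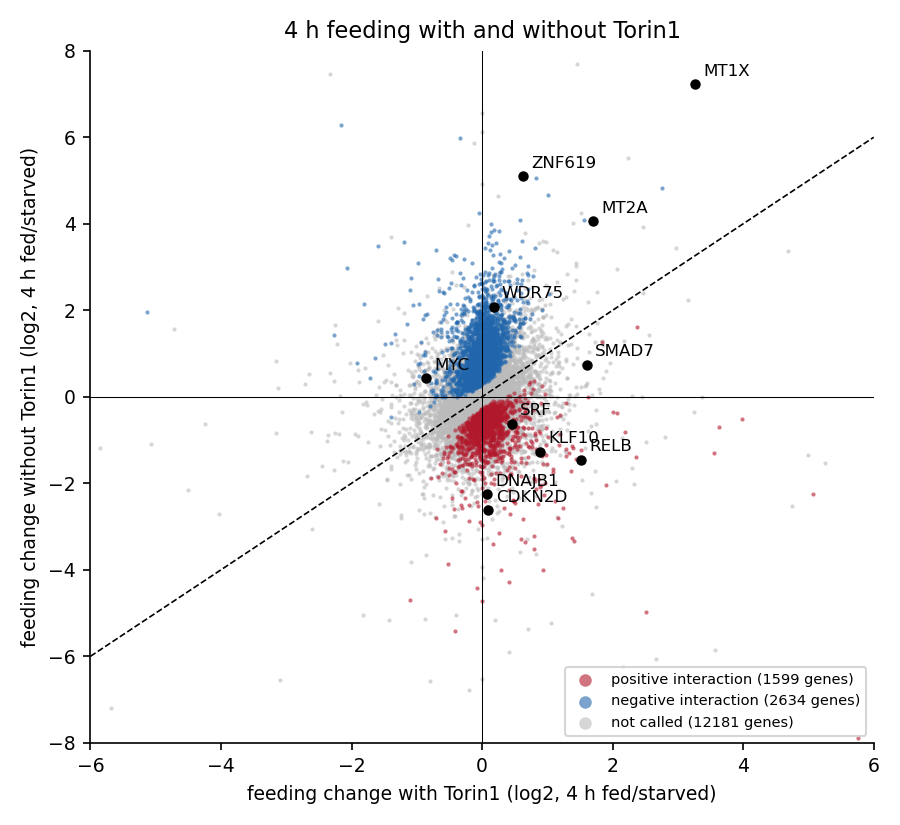
Each point is 1 of the 16414 genes tested, with its log2 feeding change (4 h fed over starved) with Torin1 on the x axis and without Torin1 on the y axis; red and blue points are called for the interaction, the dashed line marks equal changes, and 7 genes lie outside the axes. The 4233 called genes spread along the vertical axis, while with Torin1 most lie close to 0, with MT1X, SMAD7 and RELB among those that moved with Torin1 too.

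A called gene can differ in 1 group from the other 3, and this was described by a rule: the 3 remaining groups within 0.5 of each other in mean log2 CPM and the odd group at least 1 away from their mean. The odd group was most often the starved cells without Torin1. They stood low for 469 called genes (11.1% of the 4233) and high for 111 (2.62%). The 4 h fed cells without Torin1 stood high for 40 genes and low for 44. Either group with Torin1 stood apart for only 4 genes by this rule, 2 with fed cells high and 2 with starved cells low. The other 3565 called genes met no pattern. With wider limits of 1 and 1.5, starved cells stood low for 406 and high for 68 genes.

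The genes for which starved cells stood low were therefore about as high in starved cells with Torin1 as in fed cells. Their median difference with Torin1 in starved cells was 1.40 on the log2 scale and their median feeding change without Torin1 was also 1.40, but these values chose the genes. The 6 libraries of cells fed for 1 h took no part in the group means that set the classes. They did share the filter, scaling and spread of the fit that called the genes. They were compared in a test added after the data were seen. In 1 h fed cells, 454 of the 469 genes (96.8%) were higher with Torin1 than without it and none was lower, against 33.2% higher among all genes tested. Of the 111 genes for which starved cells stood high, 105 (94.6%) were lower with Torin1 in 1 h fed cells and none was higher, against 29.9% lower among all genes.

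**Figure D2:**
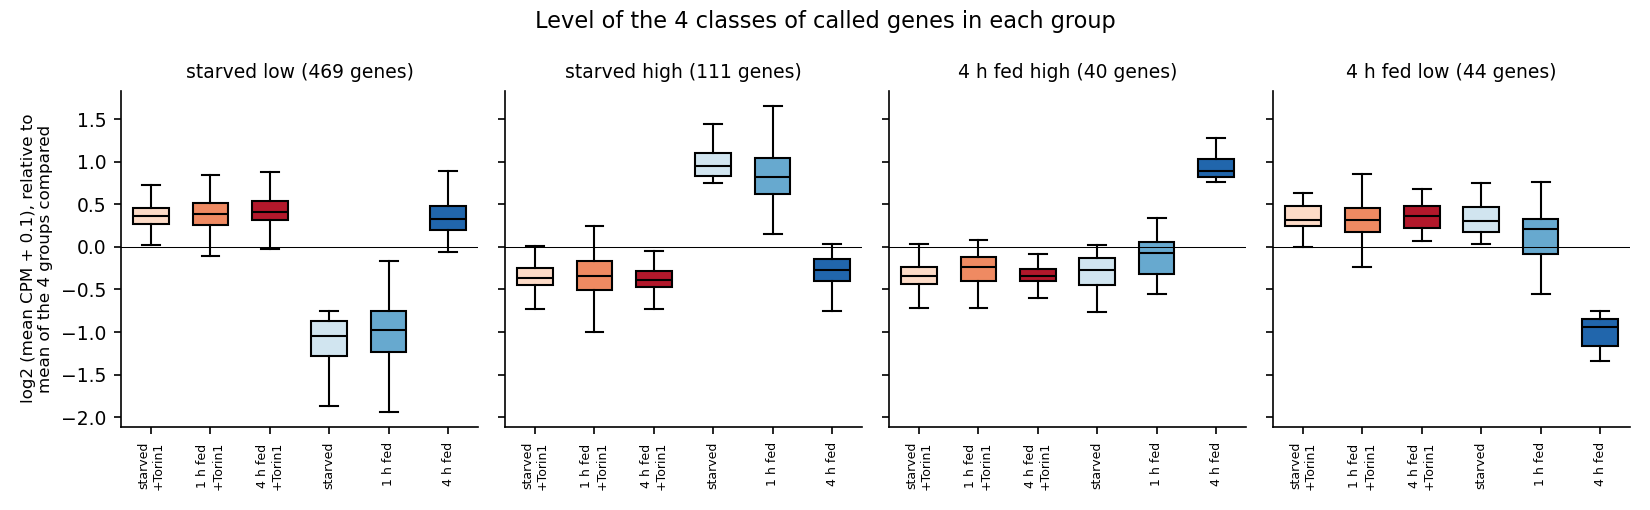
Boxes show the median and quartiles over genes of the mean level in each of 6 groups, as log2 of CPM plus 0.1 relative to the mean of the 4 groups compared, for the called genes in which 1 group stood apart; whiskers reach 1.5 times the box height and outlying genes are not drawn. For the 469 genes that stood low in starved cells and the 111 that stood high, cells fed for 1 h without Torin1 lie near starved cells and all 3 groups with Torin1 lie near 4 h fed cells.

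The classes were also described by their transcripts, a comparison chosen after the values were seen and not tested. The median GC content of a gene's most abundant transcript was 46.1% for genes with a positive interaction and 50.8% for those with a negative one, against 49.6% for all tested genes with an annotated transcript. The median length was 3076 and 3231 bases, against 2767. Genes named ZNF, nearly all of which encode zinc finger proteins, were 43 of the 469 genes low in starved cells (9.17%) and 1 of the 111 genes high in them (0.901%), against 475 of all 16414 (2.89%).

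Metallothioneins, small proteins that bind zinc and copper, rose with feeding in both arms, but less with Torin1, so their interaction was negative. MT1X (ENSG00000187193) had 11.2, 14.3 and 12.4 CPM in 4 h fed cells and 1.11, 1.12 and 1.75 CPM in starved cells with Torin1. It had 76.2, 69.96 and 76.7 CPM in 4 h fed cells and 0.680, 0.418 and 0.367 CPM in starved cells without it. The groups do not overlap in either arm, and the fed libraries with Torin1 lie between the starved libraries and the fed libraries without Torin1. The feeding change of MT1X was 3.26 on the log2 scale with Torin1 and 7.23 without it, an interaction of −3.98 (SE 0.45, adjusted p = 4.5e-08). MT2A had 19.9, 24.8 and 22.6 CPM in 4 h fed cells and 6.47, 5.61 and 8.69 CPM in starved cells with Torin1, and 95.1, 90.3 and 82.6 CPM in 4 h fed cells and 5.64, 4.76 and 5.60 CPM in starved cells without it, with an interaction of −2.36 (SE 0.24, adjusted p = 4.9e-09). MT1F had 5.98, 7.54 and 6.99 CPM in 4 h fed cells and 0.557, 1.20 and 1.32 CPM in starved cells with Torin1, and 10.9, 10.9 and 9.84 CPM in 4 h fed cells and 0.389, 0.0836 and 0.643 CPM in starved cells without it. Its interaction was −2.07 (SE 0.62, adjusted p = 0.013), and the call was lost without replicate 2 of the starved cells, where the adjusted p was 0.071. The other 9 metallothionein genes had at most 2 counts in any library and were not tested. Reads of near-identical metallothionein copies may have been shared out between genes, so single members are uncertain.

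Promoter windows of 2 of these genes, 250 bases before to 50 after the annotated start, are shown because metallothioneins are the textbook targets of MTF1, a zinc sensor that binds metal response elements. They come from RefSeq on GRCh38.p14, at chr16:56682220-56682519 and chr16:56608334-56608633, both on the plus strand, 5′ to 3′. Capitals mark the letters TGCNCNC, a loose form of the core of that element, or their reverse complement, and adjoining matches run together.
MT1X: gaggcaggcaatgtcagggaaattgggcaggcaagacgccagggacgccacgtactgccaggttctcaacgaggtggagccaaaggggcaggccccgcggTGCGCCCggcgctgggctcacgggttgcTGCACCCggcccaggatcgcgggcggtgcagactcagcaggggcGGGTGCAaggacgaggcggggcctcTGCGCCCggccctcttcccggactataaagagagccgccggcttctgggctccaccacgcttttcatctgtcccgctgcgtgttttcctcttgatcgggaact
MT2A: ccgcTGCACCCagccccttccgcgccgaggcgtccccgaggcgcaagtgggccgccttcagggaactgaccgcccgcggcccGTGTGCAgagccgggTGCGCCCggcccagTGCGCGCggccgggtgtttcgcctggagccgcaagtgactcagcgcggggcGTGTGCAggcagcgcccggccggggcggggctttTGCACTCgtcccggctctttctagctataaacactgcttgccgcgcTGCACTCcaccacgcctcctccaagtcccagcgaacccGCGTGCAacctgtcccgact
MT1X held 4 matches and MT2A 8. At least 1 match was present in 55.9% of 35116 promoters of the same length and at least 3 in 8.75%. MT1F was not matched in the promoter table. A match is a run of letters and no evidence of binding. Of 12 zinc transport genes tested, MTF1 included, 3 were positive (25%, against 9.74% of all genes) and 0 negative (against 16%). Of the transporters, SLC39A6 and SLC39A7 had interactions of 0.51 and 0.51. SLC30A1 rose with feeding in both arms, by 1.76 with Torin1 and 1.71 without it. Unlike that of the metallothioneins, its interaction of 0.05 (SE 0.21) was not called (adjusted p = 0.90). SLC39A10, which brings zinc into the cell, fell with feeding by a similar size in both arms, with 72.5, 60.8 and 59.4 CPM in 4 h fed cells and 174, 195 and 139.8 CPM in starved cells with Torin1 and 84.7, 111 and 73.9 CPM in 4 h fed cells and 238, 311 and 305 CPM in starved cells without it, and its interaction of 0.26 (SE 0.24) was not called (adjusted p = 0.47).

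The most negative interaction among genes averaging 5 CPM or more was that of ZNF619, a zinc finger gene. It had 23.1, 19.1 and 16.7 CPM in 4 h fed cells and 10.2, 10.7 and 17.2 CPM in starved cells with Torin1, and 7.97, 8.73 and 9.18 CPM in 4 h fed cells and 0.194, 0.251 and 0.276 CPM in starved cells without it, an interaction of −4.47 (SE 0.43, adjusted p = 2.1e-09). All 9 libraries of the other 3 groups lay far above the starved libraries without Torin1. Those starved values are about at the limit taken for a count of 0 (0.219 to 0.285 CPM). The size of this interaction, and with it its rank, is therefore uncertain. TTC5, which encodes a factor that triggers the decay of tubulin mRNA, had 43.4, 33.7 and 36.2 CPM in 4 h fed cells and 31.7, 32.4 and 33.7 CPM in starved cells with Torin1, and 31.9, 31.6 and 34.01 CPM in 4 h fed cells and 3.30, 2.51 and 2.48 CPM in starved cells without it, with an interaction of −3.34 (SE 0.22, adjusted p = 7.1e-13). TUBGCP3, a subunit of the gamma-tubulin complex, had a similar profile, with 41.1, 46.3 and 37.8 CPM in 4 h fed cells and 33.1, 33.3 and 37.5 CPM in starved cells with Torin1, and 45.3, 54.7 and 55.2 CPM in 4 h fed cells and 5.35, 4.34 and 5.97 CPM in starved cells without it. Its interaction was −3.04 (SE 0.19, adjusted p = 3.7e-13). CHMP6, a subunit of the ESCRT-III membrane remodelling complex, had 36.7, 32.4 and 35.2 CPM in 4 h fed cells and 22.1, 21.1 and 24.9 CPM in starved cells with Torin1, and 32.1, 27.9 and 28.2 CPM in 4 h fed cells and 4.57, 0.836 and 2.02 CPM in starved cells without it, with an interaction of −2.99 (SE 0.33, adjusted p = 3.7e-07). In TTC5, TUBGCP3 and CHMP6, feeding without Torin1 brought the level close to or above that of starved cells with Torin1.

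PLAGL2, which encodes a zinc finger transcription factor, went beyond that level. It had 55.3, 53.4 and 55.1 CPM in 4 h fed cells and 62.6, 61.95 and 57.5 CPM in starved cells with Torin1, and 128, 135 and 139 CPM in 4 h fed cells and 19.2, 13.7 and 13.96 CPM in starved cells without it, so that fed cells without Torin1 were the highest and starved cells without Torin1 the lowest of the 4 groups, with an interaction of −3.26 (SE 0.15, adjusted p = 5.3e-16). SNPH, which encodes syntaphilin, a protein that docks mitochondria on microtubules, showed the same order with means of 8.43 ± 1.71, 7.65 ± 1.99, 16.8 ± 1.31 and 1.47 ± 0.385 CPM in fed and starved cells with Torin1 and in fed and starved cells without it (SD, n = 3 each). Its interaction was −3.35. The other genes among the 10 most negative were F8A1 (−3.68), KBTBD7 (−3.39), an adaptor of a cullin ubiquitin ligase, and PET117 (−3.21), an assembly factor of cytochrome c oxidase. F8A1 has near-identical copies in the genome and its count is uncertain.

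**Figure D3:**
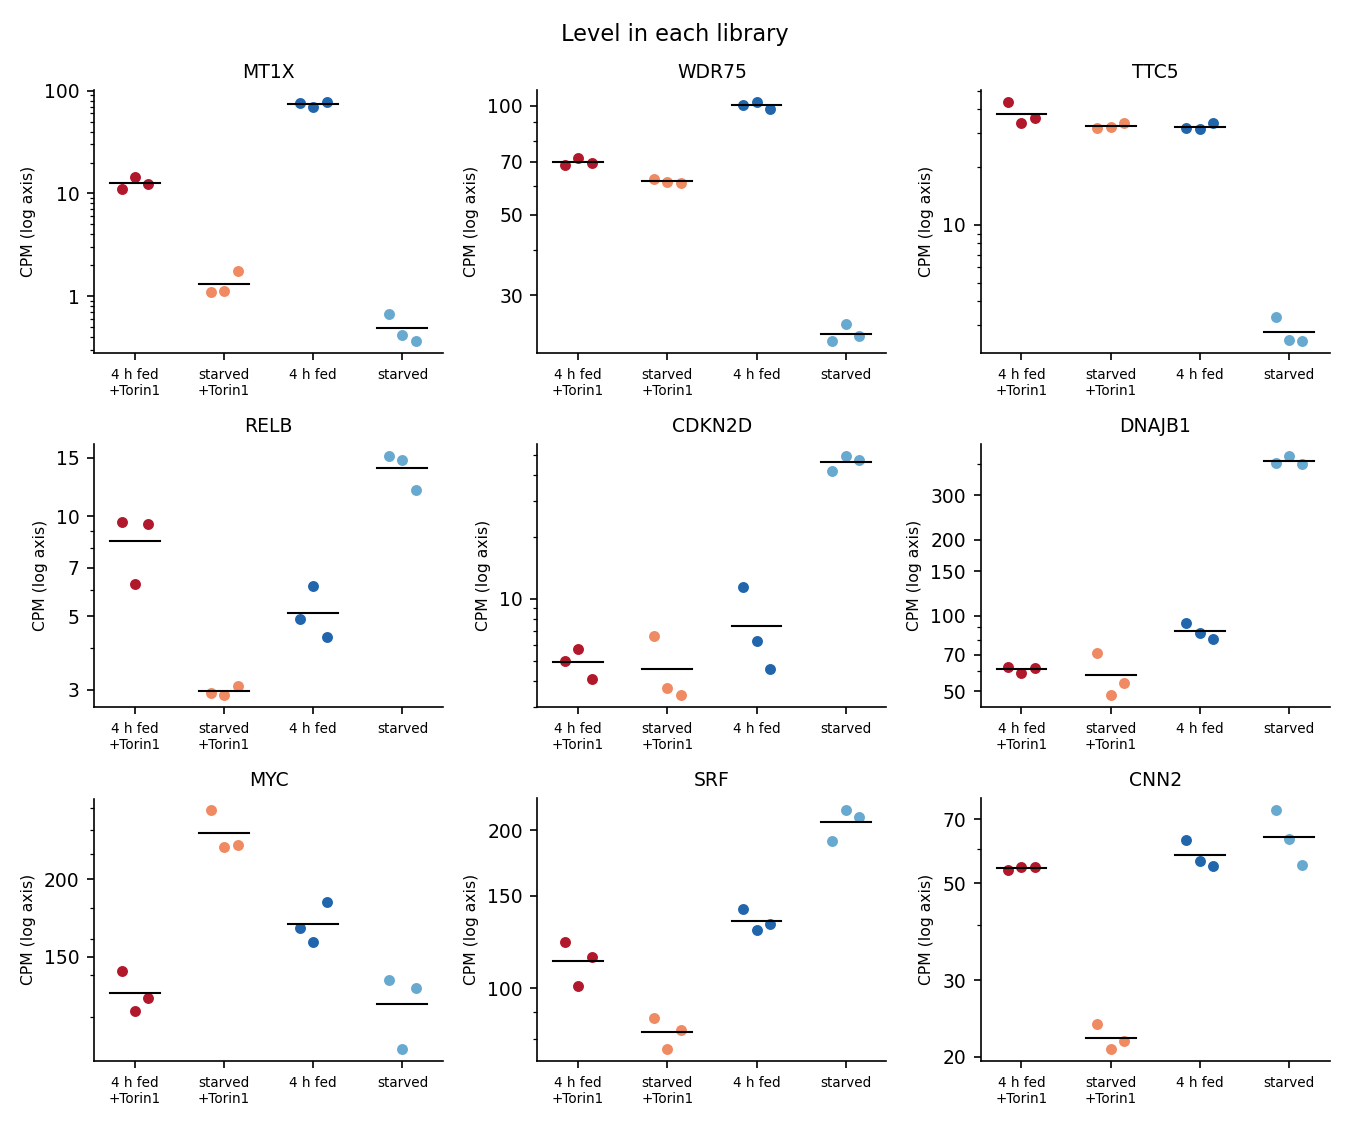
Points are the levels in single libraries, in CPM on a log axis, and lines are the means of 3 libraries, for 9 genes in the 4 groups. MT1X and WDR75 are highest in 4 h fed cells without Torin1, TTC5 is low and CDKN2D and DNAJB1 are high in starved cells without Torin1 alone, and RELB, MYC and SRF move in opposite directions with feeding in the 2 arms.

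Lists of ribosome production genes differed in direction, while over all genes negative calls outnumbered positive ones. All gene lists were chosen with earlier results of these data known, so their shares carry no test. Of 51 ribosome assembly factors tested, 12 were negative (23.5%, against 16% of all genes) and 3 positive (5.88%, against 9.74%). Their median interaction was −0.23. Feeding without Torin1 raised 23 and lowered 9 of the 51, and feeding with Torin1 raised none and lowered 1. WDR75, part of the complex that processes the small subunit rRNA, had 68.8, 71.7 and 69.5 CPM in 4 h fed cells and 62.9, 61.7 and 61.2 CPM in starved cells with Torin1, and 100.1, 102 and 98.2 CPM in 4 h fed cells and 22.4, 24.98 and 23.2 CPM in starved cells without it. Fed cells without Torin1 were highest, and its interaction was −1.91 (SE 0.13, adjusted p = 3.9e-12). MRTO4, a large subunit assembly factor, had 57.5, 61.4 and 59.6 CPM in 4 h fed cells and 60.2, 64.7 and 60.01 CPM in starved cells with Torin1, and 139, 148 and 153 CPM in 4 h fed cells and 43.2, 48.2 and 52.997 CPM in starved cells without it, an interaction of −1.65 (SE 0.12, adjusted p = 1e-11). Here the 2 groups with Torin1 and the starved group without it lay close together. URB2, another large subunit factor, had an interaction of −1.04, and PES1, a member of the complex that matures 28S and 5.8S precursors, one of −1.68. The 3 positive members were WDR3 (0.42), DDX21 (0.42) and UTP4 (0.38), and the positive count was 1 without replicate 1 of the fed Torin1 cells and 5 with DESeq2 size factors.

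RNA polymerase III and its factors, which transcribe tRNA and 5S rRNA genes, had the largest negative share of the lists with at least 10 tested members. Of 20 tested, 12 were negative (60%, against 16% of all genes) and 2 positive (10%, against 9.74%), with a median interaction of −0.44. POLR3F, a polymerase subunit, had 21.6, 17.5 and 16.4 CPM in 4 h fed cells and 18.4, 15.6 and 15.8 CPM in starved cells with Torin1, and 31.2, 35.03 and 32.5 CPM in 4 h fed cells and 7.77, 6.52 and 9.46 CPM in starved cells without it, with an interaction of −1.90 (SE 0.21, adjusted p = 3.4e-08). GTF3C3, a subunit of the promoter-binding factor TFIIIC, had 108, 114 and 94.03 CPM in 4 h fed cells and 87.5, 91.6 and 99.4 CPM in starved cells with Torin1, and 67.2, 76.4 and 70.1 CPM in 4 h fed cells and 28.6, 25.7 and 26.5 CPM in starved cells without it. Its interaction was −1.22 (SE 0.13, adjusted p = 2.6e-08), and starved cells without Torin1 stood below the other 3 groups. TBP, shared by all 3 nuclear polymerases, was positive at 0.67, as was POLR3D at 0.60. Leaving out single libraries kept the count of negative members between 11 and 12.

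For RNA polymerase I, which transcribes the large rRNA precursor, 3 of the 15 tested members were positive and 3 negative. Each was a share of 20%, against 9.74% and 16% of all genes, and 1 was negative without replicate 1 of the starved cells. UBTF, the factor that keeps rDNA open, rose with feeding in both arms, by 0.74 with Torin1 and 1.80 without it. It had 242, 256 and 264 CPM in 4 h fed cells and 156, 142 and 158 CPM in starved cells with Torin1, and 142, 147 and 173 CPM in 4 h fed cells and 47.7, 41.4 and 43.4 CPM in starved cells without it, an interaction of −1.07 (SE 0.12, adjusted p = 6.3e-08). TAF1A, a subunit of its promoter factor SL1, was positive at 1.19. POLR1B, the second largest polymerase subunit, differed between the arms, and neither of its feeding changes was called. Its means were 57.7 ± 4.33 CPM in fed and 58.7 ± 3.30 CPM in starved cells with Torin1, and 126 ± 12.9 CPM in fed and 114 ± 5.87 CPM in starved cells without it (SD, n = 3 each). Its interaction of −0.16 was not called (adjusted p = 0.4). Of 77 ribosomal protein genes only 6 were called, 5 positive (6.49%, against 9.74% of all genes) and 1 negative (1.30%, against 16%). Their median interaction was 0.15, against −0.02 over all genes. Feeding without Torin1 lowered 27 and raised 1 of the 77, and feeding with Torin1 changed none. The positive count was unstable. It was 12 with another scaling (DESeq2 size factors), 15 without replicate 1 of the fed cells, 8 without replicate 1 of the starved Torin1 cells and 3 without replicate 2 of the fed Torin1 cells. It was 1 without replicate 2 of the starved cells, and 0 without replicate 1 of the starved cells, replicate 3 of the fed cells, replicate 2 of the starved Torin1 cells or replicate 1 of the fed Torin1 cells. RPS26 was the negative one at −0.61, with possible near-identical copies. Of 16 tested host genes of small nucleolar RNAs, 5 were positive (31.25%) and 1 negative (6.25%), with a median interaction of 0.27.

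Of 25 nucleotide synthesis genes tested, 8 were negative (32%, against 16% of all genes) and none positive (against 9.74%). Their median interaction was −0.16. Without replicate 2 of the 4 h fed cells, 2 members were called positive. CAD, which carries the first steps of pyrimidine synthesis, was at −0.95. CTPS1, which makes CTP, had means of 155 ± 9.15 CPM in fed and 154 ± 7.81 CPM in starved cells with Torin1, against 259 ± 19.2 CPM in fed and 154 ± 9.56 CPM in starved cells without it (SD, n = 3 each), an interaction of −0.74 (SE 0.12, adjusted p = 1.1e-05). Only the fed cells without Torin1 stood above the rest. IMPDH1, of guanine nucleotide synthesis, was at −0.77. Of the tRNA synthetases, 5 of 20 were negative (25%, against 16% of all genes) and 2 positive (10%, against 9.74%). There were 3 negative without replicate 3 of the fed cells and 7 positive without replicate 2 of the fed cells. With DESeq2 size factors 5 were positive. MARS1, which charges methionine tRNA, had 106, 113 and 118 CPM in 4 h fed cells and 112, 109 and 109 CPM in starved cells with Torin1, and 204, 225 and 257 CPM in 4 h fed cells and 93.9, 88.7 and 99.8 CPM in starved cells without it, an interaction of −1.25 (SE 0.13, adjusted p = 7e-09), again with fed cells without Torin1 alone on top.

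Of 30 genes of DNA replication and the E2F programme, 10 were negative (33.3%, against 16% of all genes) and 3 positive (10%, against 9.74%), with a median of −0.17. The positive count was 1 without replicate 2 of the starved cells, replicate 3 of the fed cells, replicate 2 or 3 of the starved Torin1 cells or replicate 1 of the fed Torin1 cells. UHRF1, a factor of DNA methylation maintenance, was at −1.07, and GINS1, a helicase subunit, at −1.02. GINS1 fell with feeding under Torin1 (−0.50) and rose without it (0.52). Of 25 tested genes of G2 and mitosis, 5 were positive (20%, against 9.74% of all genes) and 5 negative (20%, against 16%). Their median was −0.02. With single libraries left out, 4 to 6 were positive and 3 to 5 negative. Of the negative members, KIF11 and PLK1, which drive mitosis, were lowest in starved cells without Torin1. KIF11 had means of 212 ± 16.2 and 188 ± 11.3 CPM in fed and starved cells with Torin1, and 181 ± 26.1 and 80.3 ± 3.84 CPM in fed and starved cells without it (SD, n = 3 each).

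Among positive interactions were some heat shock and other stress genes that fell with feeding in the arm without Torin1. DNAJB1 (ENSG00000132002), a cochaperone of HSP70 induced by heat shock, had 62.7, 58.98 and 61.7 CPM in 4 h fed cells and 71.1, 48.3 and 54.1 CPM in starved cells with Torin1, and 93.8, 85.5 and 80.9 CPM in 4 h fed cells and 404, 429 and 400.1 CPM in starved cells without it. The 3 starved libraries without Torin1 lay far above all 9 others. Its feeding change was 0.08 with Torin1 and −2.24 without it, and its interaction was 2.32 (SE 0.18, adjusted p = 4.1e-09). BAG3, another HSP70 cofactor, had 32.7, 34.7 and 28.8 CPM in 4 h fed cells and 35.3, 26.1 and 27.2 CPM in starved cells with Torin1, and 69.9, 53.7 and 56.8 CPM in 4 h fed cells and 147, 164 and 142 CPM in starved cells without it, with an interaction of 1.44 (SE 0.22, adjusted p = 4.1e-05). HSPA1B, an inducible HSP70 whose near twin makes its count uncertain, was at 2.08. Of 21 heat shock genes, 5 were positive (23.8% against 9.74% of all genes) and 1, the HSP90 cofactor FKBP4, was negative (4.76% against 16%). The median interaction of the 21 was 0.09. Feeding without Torin1 lowered 9 of them and raised 5, and feeding with Torin1 lowered 1 and raised none. Their summed level was 6364 to 7049 CPM in fed and 6598 to 7118 CPM in starved libraries with Torin1, and 11466 to 12754 CPM in fed and 14164 to 15501 CPM in starved libraries without it.

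The promoter windows of DNAJB1 and HSPA1B are shown because both are textbook targets of HSF1, which binds paired heat shock elements. They come from RefSeq on GRCh38.p14, at chr19:14518348-14518647 on the minus strand, the second of 3 starts listed for DNAJB1, and at chr6:31827488-31827787 on the plus strand, 5′ to 3′. Capitals mark the letters GAANNTTC, which read the same on both strands.
DNAJB1: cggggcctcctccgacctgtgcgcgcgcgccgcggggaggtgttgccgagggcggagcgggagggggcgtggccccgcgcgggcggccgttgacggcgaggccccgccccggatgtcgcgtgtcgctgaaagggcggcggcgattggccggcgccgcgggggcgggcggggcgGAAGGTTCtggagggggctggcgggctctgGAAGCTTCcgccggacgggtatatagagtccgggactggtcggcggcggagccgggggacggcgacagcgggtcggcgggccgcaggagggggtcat
HSPA1B: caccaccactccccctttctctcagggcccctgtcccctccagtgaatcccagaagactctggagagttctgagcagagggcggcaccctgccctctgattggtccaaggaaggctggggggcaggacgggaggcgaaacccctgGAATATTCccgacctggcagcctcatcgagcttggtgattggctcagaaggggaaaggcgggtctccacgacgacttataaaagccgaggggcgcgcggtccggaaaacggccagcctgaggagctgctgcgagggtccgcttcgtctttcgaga
This window of DNAJB1 held 2 matches, its other windows 0 and 1, and that of HSPA1B 1. At least 1 match was present in 6.77% of 35116 promoters. The motif and the genes shown were chosen after their values were seen.

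The unfolded protein response, which adapts the endoplasmic reticulum to misfolded proteins, had 7 of 20 members positive (35%, against 9.74% of all genes) and none negative (against 16%), with a median of 0.21. There was 1 negative member without a filter and without replicate 3 of the starved cells, replicate 1 of the fed cells, replicate 1 of the starved Torin1 cells or replicate 3 of the fed Torin1 cells. None of the 20 changed with feeding under Torin1, while 11 fell and 1 rose without it. ERN1, the sensor also called IRE1, had 27.8, 25.3 and 24.2 CPM in 4 h fed cells and 19.4, 24.4 and 24.7 CPM in starved cells with Torin1, and 14.01, 14.6 and 13.4 CPM in 4 h fed cells and 34.6, 39.1 and 31.7 CPM in starved cells without it, with an interaction of 1.51 (SE 0.18, adjusted p = 1.7e-07). HERPUD1, which serves degradation of misfolded proteins, had 40.01, 31.5 and 37.5 CPM in 4 h fed cells and 44.2, 38.2 and 39.3 CPM in starved cells with Torin1, and 71.7, 74.6 and 57.99 CPM in 4 h fed cells and 160.4, 184 and 154 CPM in starved cells without it, with an interaction of 1.13 (SE 0.15, adjusted p = 7.2e-07). XBP1, the transcription factor spliced by IRE1, was at 0.94. In HERPUD1 all starved libraries with Torin1 already lay below the fed libraries without it.

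For the amino acid response driven by ATF4, 8 of the 33 tested members were positive and 1 negative. Their shares were 24.2% and 3.03%, against 9.74% and 16% of all genes. The negative members were 2 without replicate 3 of the fed cells or replicate 1 of the starved Torin1 cells. DDIT3, which encodes the stress factor CHOP, had 9.47, 9.75 and 6.62 CPM in 4 h fed cells and 8.07, 5.85 and 5.44 CPM in starved cells with Torin1, and 12.3, 9.12 and 8.62 CPM in 4 h fed cells and 41.4, 36.8 and 29.02 CPM in starved cells without it, an interaction of 2.24 (SE 0.34, adjusted p = 3.6e-05). TRIB3, an inhibitor in the same pathway, was at 1.47. ATF5, a related transcription factor, was the negative member at −1.51 and rose with feeding without Torin1 (1.64). Neither ASNS, which makes asparagine, nor SLC7A5, a leucine transporter, was called. ASNS had means of 49.01 ± 2.30 and 45.6 ± 2.95 CPM in fed and starved cells with Torin1, and 314 ± 44.7 and 366 ± 18.6 CPM in fed and starved cells without it (SD, n = 3 each), so the arms lay far apart. Its feeding change was 0.10 with Torin1, which was not called, and −0.22 without it (adjusted p = 0.048). Its interaction of 0.32 (adjusted p = 0.071) was called in 4 alternatives, among them DESeq2 size factors, DESeq2's Wald test and the fit with replicate 2 of the fed cells left out.

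CDKN2D, an inhibitor of the G1 kinases CDK4 and CDK6, was high only in starved cells without Torin1. It had 4.98, 5.72 and 4.08 CPM in 4 h fed cells and 6.61, 3.69 and 3.42 CPM in starved cells with Torin1, and 11.5, 6.24 and 4.59 CPM in 4 h fed cells and 41.8, 49.05 and 47.2 CPM in starved cells without it. Its feeding change was 0.08 with Torin1 and −2.62 without it, and its interaction was 2.70 (SE 0.37, adjusted p = 1.2e-05). ZNF143, a transcription factor of snRNA and many housekeeping genes, had 16.9, 16.6 and 12.7 CPM in 4 h fed cells and 24.2, 18.4 and 19.9 CPM in starved cells with Torin1, and 17.6, 20.6 and 11.9 CPM in 4 h fed cells and 102, 102 and 99.1 CPM in starved cells without it, with an interaction of 2.16 (SE 0.21, adjusted p = 1.1e-08). The other genes among the 10 most positive were the unnamed genes ENSG00000274828 (2.88) and ENSG00000260103 (2.29), the non-coding OSER1-DT (2.29) and CFAP418 (2.27), a gene of photoreceptor cilia. The call of ENSG00000260103 was lost in 12 alternatives, which included leaving out 8 of the 12 libraries singly, with an adjusted p of up to 0.15 in limma's fit. CDKN1B, another G1 inhibitor, was not called (0.27, adjusted p = 0.17). Of 20 CDK inhibitors and cyclins, 3 were positive (15%, against 9.74% of all genes) and 5 negative (25%, against 16%). CCND1, the cyclin of CDK4, fell with feeding under Torin1 (log2 change −0.59, adjusted p = 0.002) while its change without Torin1 was 0.22 (adjusted p = 0.098), an interaction of −0.81 (SE 0.15, adjusted p = 0.00015).

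The targets of FOXO factors, which insulin signalling restrains, had 9 of 24 members positive and 4 negative. These shares were 37.5% and 16.7%, against 9.74% and 16% of all genes. GADD45A, a growth arrest gene, had 36.2, 28.8 and 29.9 CPM in 4 h fed cells and 27.6, 18.4 and 20.7 CPM in starved cells with Torin1, and 29.7, 29.4 and 23.1 CPM in 4 h fed cells and 99.2, 80.3 and 77.2 CPM in starved cells without it, an interaction of 2.15 (SE 0.24, adjusted p = 6.9e-07). CCNG2, an atypical cyclin linked to arrest, had 47.8, 41.2 and 39.6 CPM in 4 h fed cells and 42.5, 41.2 and 35.4 CPM in starved cells with Torin1, and 23.02, 23.3 and 24.7 CPM in 4 h fed cells and 55.8, 60.4 and 61.3 CPM in starved cells without it, an interaction of 1.43 (SE 0.14, adjusted p = 3.5e-09). Both fell with feeding without Torin1 and neither change with Torin1 was called. TXNIP, which restrains glucose uptake, fell in both arms, with log2 changes of −0.55 with Torin1 and −1.17 without it. Its interaction of 0.62 had an adjusted p of 0.026, and the call was lost without any 1 of 5 libraries, with an adjusted p of up to 0.092. These were replicates 1 and 2 of the starved cells, replicate 3 of the fed cells, replicate 3 of the starved Torin1 cells and replicate 1 of the fed Torin1 cells. IRS2, an adaptor of the insulin receptor, was not called (0.48, adjusted p = 0.075), but was called with DESeq2 size factors, in DESeq2's Wald test and without replicate 3 of the starved cells or replicate 1 of the starved Torin1 cells.

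Sterol synthesis had 7 of 24 members positive (29.2%, against 9.74% of all genes) and 2 negative (8.33%, against 16%). The 2 negative calls were absent with DESeq2 size factors. They were 0 or 1 in number without any single library other than replicate 2 of the fed cells. HMGCS1 and MSMO1, enzymes early and late in the pathway, were at 0.74 and 0.91. MSMO1 fell in both arms, with log2 changes of −0.65 with Torin1 and −1.55 without it. SREBF1, the regulator of fatty acid synthesis, was negative at −0.92 and had 28.4, 27.7 and 37.4 CPM in 4 h fed cells and 39.3, 34.9 and 37.5 CPM in starved cells with Torin1, and 80.9, 72.1 and 93.96 CPM in 4 h fed cells and 43.8, 54.6 and 57.04 CPM in starved cells without it. Of the lysosome genes, 7 of 29 were positive (24.1%, against 9.74% of all genes) and 2 negative (6.90%, against 16%). MITF, a relative of the lysosome regulator TFEB, was at −2.12. For autophagy, 5 of 26 were positive (19.2%, against 9.74% of all genes) and 4 negative (15.4%, against 16%). The positive count was 8 without replicate 2 of the fed cells, 3 without replicate 1 of the fed cells or replicate 1 or 3 of the starved Torin1 cells, and 2 without replicate 1 or 2 of the starved cells, replicate 3 of the fed cells or replicate 2 of the fed Torin1 cells. Those called included GABARAPL1 (1.15), which coats autophagosomes, and ATG101 (−0.77), a subunit of the initiating kinase complex. Of mTOR and its regulators, 4 of 25 were positive (16%, against 9.74% of all genes) and 3 negative (12%, against 16%). The positive count was 2 without replicate 3 of the fed cells or replicate 2 of the starved Torin1 cells. The negative count was 1 with DESeq2 size factors and without replicate 1 of the starved cells, replicate 1 or 3 of the fed cells, replicate 1 or 3 of the starved Torin1 cells or replicate 2 of the fed Torin1 cells. DEPDC5, part of a brake on mTOR complex 1, was at 0.92, and RPTOR, its scaffold, at −1.11.

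**Figure D4:**
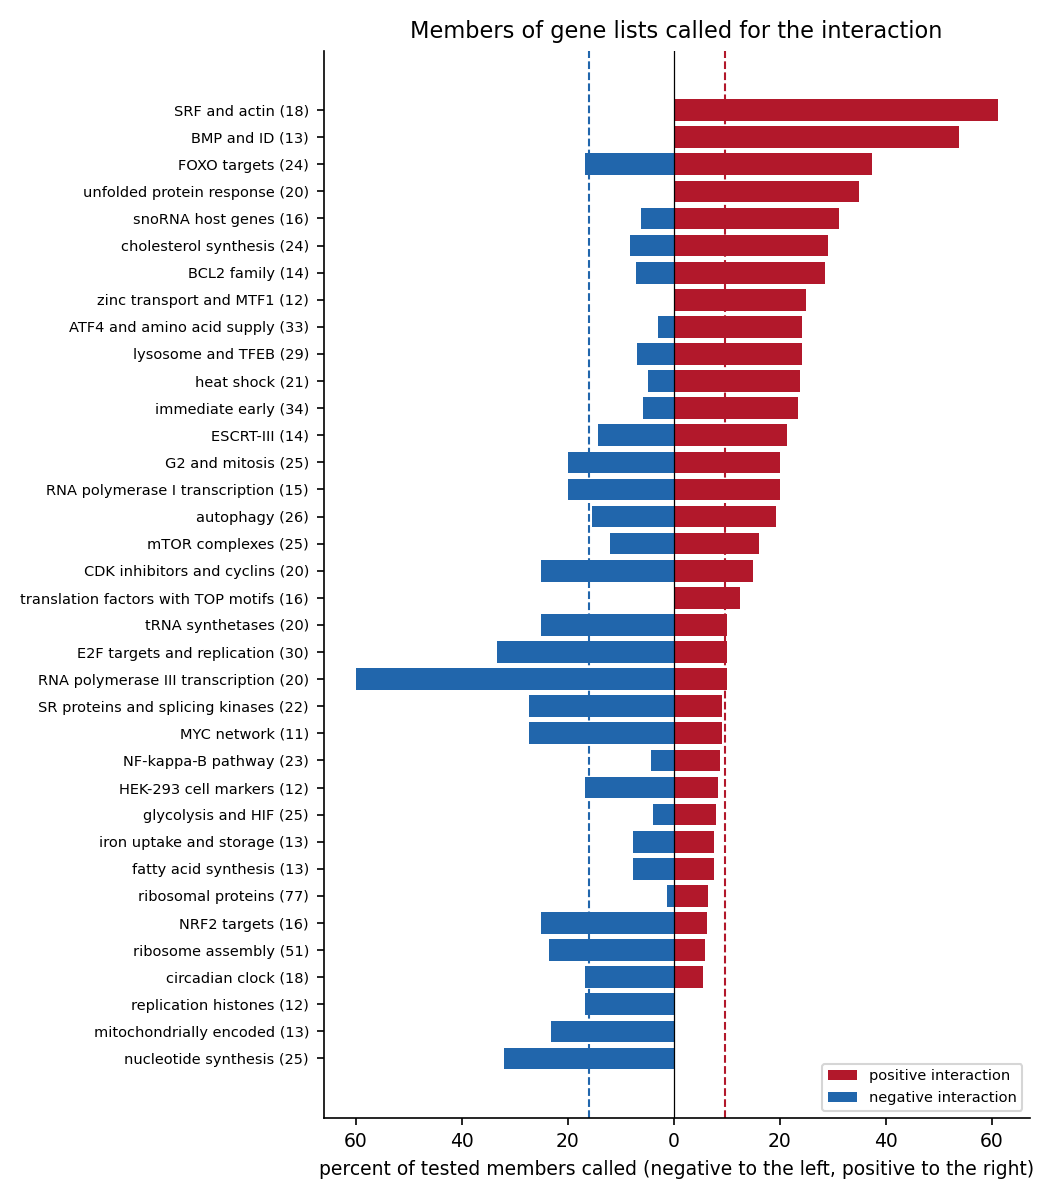
Bars give the percent of tested members of each gene list called with a positive interaction (to the right) and a negative one (to the left), with the number tested in brackets, for the 36 lists with at least 10 tested members; dashed lines mark the percent over all genes, 9.74 positive and 16 negative. SRF and actin genes (61.1% positive, 0% negative) and RNA polymerase III genes (60% negative) lie farthest out. The lists were chosen with earlier results of these data known, and the shares were not tested.

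Of 18 tested genes of SRF, its cofactor MRTF and the actin cytoskeleton they control, 11 rose with feeding when Torin1 was present and 7 were not called. For the interaction 11 were positive (61.1%, against 9.74% of all genes) and none negative (against 16%), with a median of 0.54. The median feeding change with Torin1 was 0.60, whereas feeding without it raised 2 and lowered 2, with a median of −0.10. CNN2, a calponin that binds actin, had 53.5, 54.6 and 54.5 CPM in 4 h fed cells and 23.7, 20.8 and 21.8 CPM in starved cells with Torin1, and 62.9, 56.2 and 54.8 CPM in 4 h fed cells and 73.4, 63.3 and 55.1 CPM in starved cells without it. Only the starved cells with Torin1 stood apart, below the rest, and the interaction was 1.43 (SE 0.15, adjusted p = 2.1e-08). VCL, which encodes vinculin of cell adhesions, changed by 0.96 with Torin1 and 0.06 without it, and its interaction was 0.90. The corresponding interactions were 0.83 for the tropomyosin TPM1, 0.59 for the crosslinker FLNA, 0.60 for ACTG1 and 0.41 for ACTB. ACTA2, a smooth muscle actin, had 20.3, 24.3 and 24.3 CPM in 4 h fed cells and 20.5, 21.6 and 22.3 CPM in starved cells with Torin1, and 1.75, 1.54 and 3.09 CPM in 4 h fed cells and 3.01, 2.26 and 2.30 CPM in starved cells without it, so its level was far higher with Torin1 in fed and starved cells alike, and its interaction of 0.34 was not called (adjusted p = 0.45). The count of positive members was 10 or 11 whichever library was left out.

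BMP signalling genes also leaned to one side, with 7 of 13 positive (53.8%, against 9.74% of all genes) and none negative (against 16%). There were 4 positive without replicate 3 of the starved Torin1 cells or replicate 1 of the fed Torin1 cells. SMAD7, a feedback inhibitor of the pathway, rose in both arms, by 1.60 with Torin1 and 0.75 without it. It had 42.004, 36.7 and 39.4 CPM in 4 h fed cells and 16.2, 11.3 and 11.2 CPM in starved cells with Torin1, and 16.3, 18.3 and 19.02 CPM in 4 h fed cells and 10.6, 10.9 and 10.5 CPM in starved cells without it, an interaction of 0.85 (SE 0.21, adjusted p = 0.0022). ID4, a dominant negative helix-loop-helix protein, was at 0.70, and ID3 at 0.56. ID1, of the same family, rose by 2.47 with Torin1 and 2.41 without it, and its interaction of 0.06 (SE 0.31) was not called. Of 34 immediate early genes tested, 8 were positive (23.5%, against 9.74% of all genes) and 2 negative (5.88%, against 16%). The positive count was 13 without replicate 1 and 5 without replicate 3 of the starved Torin1 cells. The negative count was 1 in every fit without a library except those without replicate 1 or 3 of the starved cells, replicate 2 of the fed cells, replicate 2 of the starved Torin1 cells or replicate 3 of the fed Torin1 cells. EGR1, an immediate early transcription factor, was not called (0.87, adjusted p = 0.34).

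Feeding moved 29 genes in opposite directions in the 2 arms, both changes being called (0.177% of genes tested). With Torin1, 13 of them rose and 16 fell, and all 29 were called for the interaction. A further 157 genes were called in the same direction in both arms, 73 up and 84 down. The count of 29 fell whichever Torin1 library was left out. It was 18, 16 and 13 without replicate 1, 2 or 3 of the starved Torin1 cells. Without replicate 1, 2 or 3 of the fed Torin1 cells it was 12, 14 and 19.

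RELB (ENSG00000104856), a subunit of the non-canonical NF-kappa-B factor, had the largest such reversal. It had 9.61, 6.25 and 9.46 CPM in 4 h fed cells and 2.92, 2.89 and 3.07 CPM in starved cells with Torin1, and 4.90, 6.14 and 4.31 CPM in 4 h fed cells and 15.2, 14.8 and 12.03 CPM in starved cells without it. It rose by 1.51 with Torin1 (adjusted p = 9.9e-05) and fell by 1.45 on the log2 scale without it (adjusted p = 1.8e-06), an interaction of 2.96 (SE 0.31, adjusted p = 1.2e-08). Neither pair of groups overlaps. NFKB2, which encodes the precursor of its partner, was positive at 1.00 but its change with Torin1 was not called. Of 23 genes of the pathway, RELB and NFKB2 were positive (8.70%, against 9.74% of all genes), with 4 positive in DESeq2's Wald test. TRAF3, which holds the pathway in check, was the negative member (−0.58, a share of 4.35%, against 16%). There were 2 negative without replicate 3 of the starved or replicate 2 of the fed cells. NFKBIA, the canonical inhibitor, was not called (0.08, adjusted p = 0.83).

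KLF10, a factor induced by TGF-beta, had 87.4, 76.6 and 72.8 CPM in 4 h fed cells and 43.2, 45.6 and 39.7 CPM in starved cells with Torin1, and 18.6, 24.1 and 17.8 CPM in 4 h fed cells and 57.7, 49.2 and 39.2 CPM in starved cells without it, with an interaction of 2.15 (SE 0.25, adjusted p = 2.9e-06). HIVEP1, a zinc finger protein that binds kappa-B sites, followed the same course with 45.2, 43.8 and 41.05 CPM in 4 h fed cells and 23.4, 25.004 and 26.1 CPM in starved cells with Torin1, and 21.1, 27.9 and 19.5 CPM in 4 h fed cells and 43.1, 42.7 and 36.6 CPM in starved cells without it, an interaction of 1.65 (SE 0.17, adjusted p = 1.1e-08). In HIVEP1 fed cells with Torin1 and starved cells without it were the high groups and overlap, whereas in KLF10 only the fed cells with Torin1 stood high and the 2 starved groups overlap. The haematopoietic and urogenital factor GATA2 (1.55), the homeobox gene DLX2 (1.33) and the membrane protein gene MYADM (1.41) also rose with Torin1 and fell without it. SRF, the factor behind the actin genes, had 123, 101 and 114 CPM in 4 h fed cells and 87.8, 76.5 and 82.99 CPM in starved cells with Torin1, and 141, 129 and 132 CPM in 4 h fed cells and 191, 218 and 212 CPM in starved cells without it. It rose by 0.45 with Torin1 and changed by −0.62 without it, an interaction of 1.08 (SE 0.13, adjusted p = 1.9e-07).

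MYC (ENSG00000136997), the growth-promoting transcription factor, moved the other way. It had 142, 123 and 129 CPM in 4 h fed cells and 258, 226 and 227 CPM in starved cells with Torin1, and 167, 158 and 184 CPM in 4 h fed cells and 137, 107 and 133 CPM in starved cells without it. It changed by −0.85 with Torin1 (adjusted p = 9.3e-06) and by 0.43 without it (adjusted p = 0.0018), an interaction of −1.29 (SE 0.15, adjusted p = 2.3e-07). The starved cells with Torin1 were the highest group, and fed cells with Torin1 lay within the range of the 2 groups without it. AMOT, an adaptor of the Hippo pathway, had 426, 436 and 442 CPM in 4 h fed cells and 674, 761 and 670.3 CPM in starved cells with Torin1, and 280.04, 307 and 374 CPM in 4 h fed cells and 200.001, 195 and 222 CPM in starved cells without it, with an interaction of −1.33 (SE 0.13, adjusted p = 1.9e-09). TMEM109 (−1.60), the adhesion receptor gene ADGRA3 (−1.58) and PRXL2C (−1.64) also fell with Torin1 and rose without it. Of 11 genes of the MYC network, 1 was positive (9.09%, against 9.74% of all genes), MLX at 1.02. The 3 negative ones (27.3%, against 16%) included MYC itself and the partner gene MGA (−1.35).

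Some strong feeding responses did not differ detectably between the arms. TFRC, the transferrin receptor, had 69.98, 51.1 and 53.3 CPM in 4 h fed cells and 147, 155 and 131 CPM in starved cells with Torin1, and 263, 289 and 255 CPM in 4 h fed cells and 628, 787 and 708 CPM in starved cells without it. It changed by −1.31 with Torin1 and −1.40 without it, and its interaction was 0.09 (SE 0.18, adjusted p = 0.79). A missing call does not show that the responses are equal.

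The same interaction at 1 h of feeding was called for 11 genes (0.067%), 2 positive and 9 negative, with 1072 at an unadjusted p under 0.05. The difference of the 4 h and 1 h interactions, in which the starved libraries cancel out, was called for 3950 genes (24.1%), 1400 positive and 2550 negative. TTC5 had 34.98 ± 2.68 CPM in 1 h fed cells with Torin1 and 2.43 ± 0.803 CPM in 1 h fed cells without it (SD, n = 3 each), near the level of starved cells in each arm, and its difference was −3.63 (SE 0.22, adjusted p = 1.6e-13). DNAJB1 had 68.6 ± 4.33 CPM with Torin1 and 382 ± 80.9 CPM without it at 1 h, and its difference was 1.97 (SE 0.18, adjusted p = 4e-08). MT1X had 3.58 ± 0.904 CPM with Torin1 and 3.44 ± 1.46 CPM without it at 1 h, and its difference was −2.59 (SE 0.30, adjusted p = 6.5e-08). RELB had 3.86 ± 1.09 CPM with Torin1 and 13.6 ± 1.72 CPM without it, with a difference of 2.55 (SE 0.31, adjusted p = 1.5e-07). TXNIP took another course: at 1 h it had 12.7 ± 3.30 CPM with Torin1 and 15.9 ± 2.94 CPM without it, below starved cells in both arms, and at 4 h it had 60.6 ± 1.93 CPM with Torin1 against 19.2 ± 3.11 CPM without it. Its difference was 1.99 (SE 0.23, adjusted p = 1.7e-07). TXNIP was among the 11 genes called at 1 h, with a negative interaction of −1.37 (adjusted p = 0.0081). At 4 h the interaction was positive at 0.62, so the difference reflects both times.

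**Figure D5:**
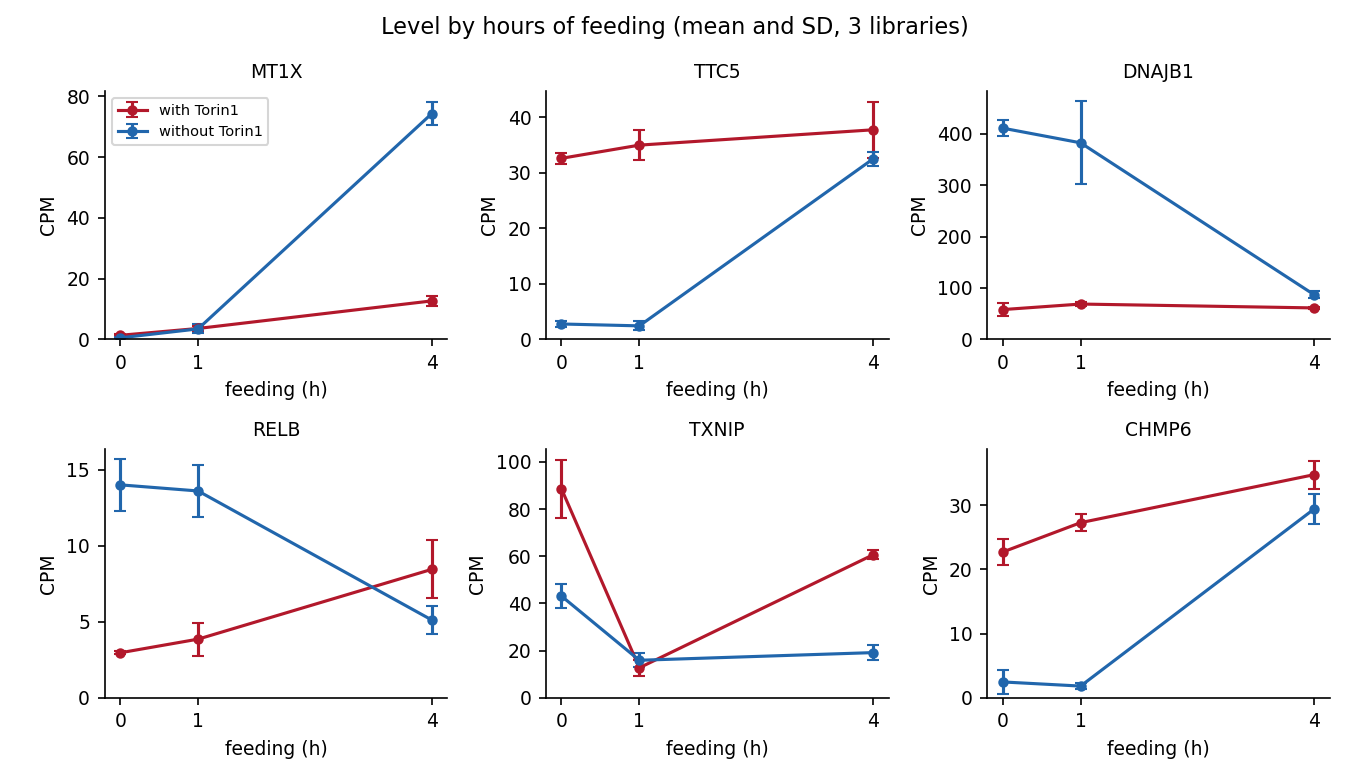
Mean level in CPM with SD bars over 3 libraries against hours of feeding (0 h is starved) for 6 genes, in red with Torin1 and in blue without it. TTC5, DNAJB1 and CHMP6 are near their starved level at 1 h in both arms and change by 4 h chiefly without Torin1, MT1X is far higher at 4 h without Torin1, RELB crosses between 1 h and 4 h, and TXNIP is low at 1 h in both arms.

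Isoform shares are given for 2 genes as values only, since the planned test of isoform use was not sound on simulated data. The genes were chosen after their values were seen, and by that same test. Both were among the genes with its smallest p-values, and each isoform shown had the smallest of its gene. A marked contrast in these shares is therefore no support for a change. The isoform ATXN2L-202 of ATXN2L, a stress granule protein, made up 10.6%, 18.7% and 15.01% of the gene's estimated counts in 4 h fed and 13.2%, 21.9% and 15.8% in starved cells with Torin1. It made up 16.9%, 9.97% and 23.1% in 4 h fed cells without Torin1 and was listed at 0 in all 3 libraries of starved cells. CLTC-201, of the clathrin heavy chain gene CLTC, made up 41.8%, 24.9% and 38.3% in 4 h fed and 38.5%, 33.1% and 26.8% in starved cells with Torin1, 6.43%, 15.6% and 15.2% in 4 h fed cells without it, and was listed at 0 in starved cells. In these 4 groups ATXN2L had at least 2342 counts in a library and CLTC at least 3814, but a 0 in estimated isoform counts can be a failed estimate, since similar isoforms share most reads.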

How the data were processed

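RNA was measured by sequencing in 18 libraries of HEK-293E cells in 6 groups of 3, of which 12 libraries in 4 groups form the comparison. Per the labels' protocols, total RNA was treated with DNase and reads were aligned with STAR. The submitters' processing notes also name RSEM and DESeq2, with no versions. The genome build in the labels is a nematode one, whereas the identifiers are human Ensembl ones, so the files give no usable coordinates, and the human build and the use of strand were not found in the sources used here. Genes that overlap on opposite strands and near-identical copies are therefore uncertain. The deposited tables hold the authors' expected counts per gene and per isoform, not normalised. Of the gene values 3.32% were not whole, and all were rounded. Of 60623 identifiers, 60295 were named from a table of gene names and 309 from GENCODE release 29.

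Genes were kept by filterByExpr (minimum count 10), scaled by TMM and fitted with edgeR 4.0.16 (robust quasi-likelihood F tests) in R 4.3.3, with 1 mean per group and all 18 libraries sharing the spread (12 residual degrees of freedom, common coefficient of variation 10.6%). Adjustment of p-values followed Benjamini and Hochberg. The SE of a log2 change is its size divided by the root of F. Patterns over groups used log2 CPM with a prior count of 2. Alternatives were DESeq2 1.42.0 size factors and Wald test, total counts, limma 3.58.1 (voom), other filters, fewer groups, no mitochondrial genes, the replicate number as a block and leaving out each library. Members, markers and the 41 gene lists were chosen with earlier results of these data known. The genes named are the 10 most positive and 10 most negative (mean of at least 5 CPM), the 10 largest reversals, the 2 called members with the smallest p of each list, and 35 fixed genes. Other named list members, reversals and ZNF genes were chosen after their values were seen. Not every gene that the rule gives is described here.

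The gene test was tested on simulated counts and recovered most 4-fold changes. The planned test of isoform use (diffSpliceDGE on 48663 isoforms of 10700 genes) failed its own check: on simulated counts it recovered few changed genes and called unchanged genes in numbers close to its calls on the real data, so no isoform call and none of its alternatives is reported.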

Additional observations from a re-analysis of the deposited data

Results flagged for a closer look

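The interaction of feeding with Torin1 differed between 4 h and 1 h of feeding, by edgeR's test of that difference, for 46 of the 58 genes named for the size of their interaction, for a reversal or from the fixed genes. Values are the 4 h less the 1 h interaction on the log2 scale, and a gene with a value under 0 had the lower interaction at 4 h. The largest values under 0 were CHMP6 (−3.65), TTC5 (−3.63), TUBGCP3 (−3.38), SNPH (−3.24), ZNF619 (−3.02), PET117 (−2.86), MT2A (−2.77), MT1F (−2.72), PLAGL2 (−2.61), MT1X (−2.59), F8A1 (−2.53) and WDR75 (−2.16). The other 12 under 0 were PRXL2C (−1.87), KBTBD7 (−1.65), TMEM109 (−1.54), MRTO4 (−1.49), ADGRA3 (−1.42), UBTF (−1.31), AMOT (−1.23), URB2 (−0.87), SREBF1 (−0.67), CCND1 (−0.62), MYC (−0.58) and CDKN1B (−0.40). The largest values above 0 were ENSG00000274828 (2.90), RELB (2.55), CDKN2D (2.34), ZNF143 (2.27), TXNIP (1.99), DNAJB1 (1.97), OSER1-DT (1.97), KLF10 (1.87), CFAP418 (1.69), HIVEP1 (1.68) and CCNG2 (1.55). The other 11 above 0 were DDIT3 (1.18), GATA2 (1.14), MYADM (1.11), HERPUD1 (1.03), MSMO1 (0.99), KLHL24 (0.82), HMGCS1 (0.71), SLC39A10 (0.69), DLX2 (0.59), XBP1 (0.55) and SRF (0.52). Among these, CDKN1B and SLC39A10 were not called for the 4 h interaction itself. The genes were chosen for their 4 h values, so their number says nothing of how common such differences are, and over all genes tested 24.1% were called.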

How the results depend on the processing

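The count of genes called for the 4 h interaction was 4125 to 4495 under the alternatives other than leaving out libraries, and 3546 to 4367 with 1 library left out. The share of positive calls was 37.8%, and 45.0%, 42.3% and 45.6% with DESeq2 size factors, total counts and DESeq2's Wald test. Genes called in opposite directions numbered 29, but 47 without a filter, 52 in the Wald test, 44 with the replicate block and 13 without the 2 libraries high in collagen genes, and 12 to 34 with 1 library left out. The 4 h less the 1 h interaction gave 3456 to 4046 genes with 1 library left out and changed by less than 1.5 times otherwise. Starved cells stood apart for 580 called genes, and 474 with the wider limits. Pairing of the libraries by replicate number was weak at most, and was not tested. Over 18 pairs of same-numbered libraries the correlation of deviations was −0.06 to 0.12, with 2 over 0.1. Its median was 0.04, against −0.02 for libraries with other numbers. Of 12 libraries, 9 correlated best with their own number. The replicate block gave 4492 genes for the interaction and 4201 for the difference between times, called ASNS (adjusted p = 0.037) and lost ENSG00000260103 (adjusted p = 0.063). Of 106 named genes called, 96 were called under every planned or added alternative. The sign reversed for uncalled genes only. ID1 was at −0.057 without replicate 1 of the fed cells, −0.15 without replicate 2 of the starved Torin1 cells and up to 0.26 without others. NFKBIA was at −0.077 without replicate 2 of the starved Torin1 cells and up to 0.20 without others. TFRC was at −0.072 without replicate 1 of the fed Torin1 cells and up to 0.17 without others. COL3A1 was at −0.54 without the 2 libraries high in collagen genes. List counts moved by over 1.5 times in 228 of 1804 cases, mostly in small counts. Medians of the lists for mTOR complexes, G2 and mitosis, NRF2 targets, SR proteins and fatty acid synthesis changed sign with the scaling. Genes near the limit of a count of 0 carry wide errors, and with 3 libraries a group small changes can be missed. The alternatives to the isoform test are not reported because that test failed on simulated data.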
